A study of Mus musculus with 3 samples.

Results

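Integrins and cadherins, the adhesion receptors that hold cells to the matrix and to each other, were followed on 3 mouse oligo arrays of cultured synovial cells. The members were the probes whose platform symbol was an integrin alpha or beta subunit (Itga or Itgb) or a numbered cadherin (Cdh), with Cdh11 left out. The choice used names and no measured value. It took 46 of 19321 named genes, with 51 of 23473 probes, of which 29 were integrin probes of 25 genes and 22 were cadherin probes of 21 genes. Itgad and Cdh12 had no probe under their names.

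Integrins are pairs of an alpha and a beta subunit. The alpha subunit largely sets the ligand (collagens, laminins, RGD-containing proteins such as fibronectin and vitronectin, or receptors on other cells), and the tails bind talin and kindlin, which link them to actin. The beta2 and beta7 subunits and their alpha partners are made by leukocytes, whereas beta1 and the alphaV pairs are found in fibroblasts and many other cells. Cadherins bind calcium, pair with cadherins on the neighbouring cell, and hold catenins at their tails. In the synovial lining, cadherin contacts join fibroblast-like synoviocytes (FLSs), and integrins hold both FLSs and macrophages to the matrix.

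The cells came from the pannus, the inflamed synovial tissue, of D1BC mice. These are DBA/1 mice with a murine B7.1 (CD80) transgene under the rat type II collagen promoter and enhancer, which is expressed in chondrocytes and synovial cells, and their arthritis was induced with bovine type II collagen. After an overnight culture in DMEM with 10% FBS, the cells were kept for 48 h with CTLA-4-Ig (abatacept, the CTLA-4 extracellular domain fused to a modified human IgG1 Fc), with human IgG (hIgG), or with vehicle, which was the same medium. Genotype, transgene, induction and medium were shared by all 3 conditions. The dose was 100 μg for both proteins in the sample titles 100 mg/ml in the labelled protocol and 100 μg/ml in the published methods. The age of the mice at harvest, and whether the 3 cultures came from 1 mouse, pooled mice or different mice, were not given in the sources used here.

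RNA of each condition was hybridized to 1 array, so no difference has a replicate check and nothing was tested. The number of arrays limits the precision. Levels are normalized signals, scaled so that the detected spots of each array have a median of 25, and a probe counted as detected when it exceeded the blank spots by 2 of their SDs. Between 81.4% and 84.0% of the probes were detected on each array, and 18664 probes on all 3. Positive control spots, 24 of a kind, had a coefficient of variation of 6.30% to 13.5% within an array. Between the arrays, 1 kind had mean signals of 1342 with CTLA-4-Ig, 1740 with hIgG and 2152 with vehicle. The other kind had 8967, 8685 and 8606 on the same arrays. Ratios are written with a slash, so that CTLA-4-Ig/hIgG is the signal with CTLA-4-Ig over that with hIgG. Over those 18664 probes the median log2 ratio was 0.09 (CTLA-4-Ig/hIgG), 0.10 (CTLA-4-Ig/vehicle) and 0.03 (hIgG/vehicle), and the members are read against these shifts. The 3 ratios share arrays in pairs and are not independent of each other. The label names primary FLSs, and 12 of 12 FLS markers were detected on all arrays, but so were 14 of 14 macrophage markers. In such a mixture, fewer cells of a type and less RNA per cell cannot be told apart.

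Among the integrins 25 of 29 probes (86.2%) were detected on all 3 arrays, against 79.5% of all probes. The mean signal reached 100 for 6 of them and 25 for 15, against 5029 and 9675 of the 18664 probes detected on all 3 arrays. None of these 25 probes was 2-fold apart for CTLA-4-Ig/hIgG, where 0.477% of all probes were 2-fold higher and 0.193% 2-fold lower. None was 2-fold apart for CTLA-4-Ig/vehicle (0.675% and 0.193% of all probes), and none for hIgG/vehicle (0.236% and 0.3%). The median log2 ratio of the integrins was 0.12 for CTLA-4-Ig/hIgG, 0.07 for CTLA-4-Ig/vehicle and -0.02 for hIgG/vehicle. These medians lay 0.03 above, 0.03 below and 0.05 below those of all probes. The log2 ratios ran between -0.40 and 0.95 for CTLA-4-Ig/hIgG, between -0.25 and 0.58 for CTLA-4-Ig/vehicle, and between -0.65 and 0.38 for hIgG/vehicle. The family medians thus stayed within 0.05 of those of all probes, and Itgb7 had both the highest value for CTLA-4-Ig/hIgG and the lowest for hIgG/vehicle.

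**Figure D1:**
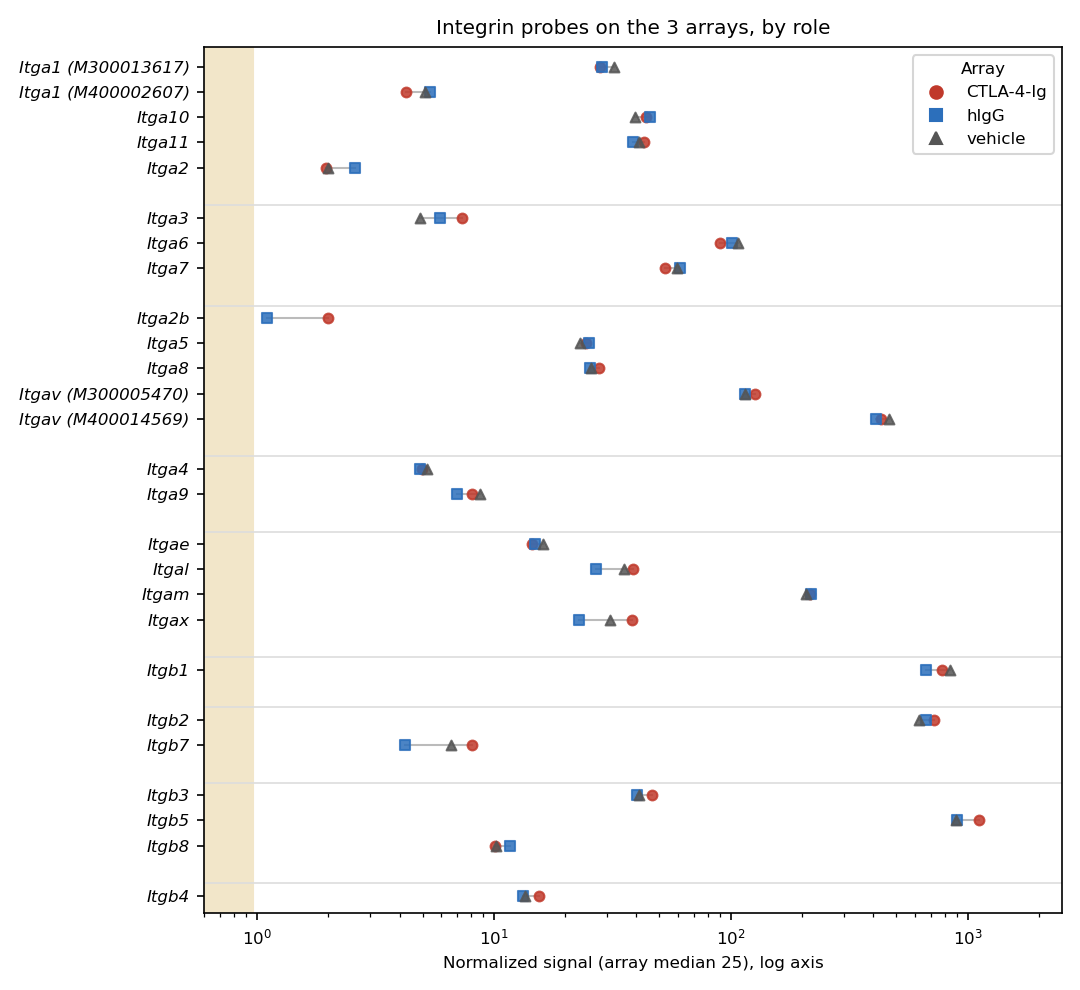
Normalized signals (log axis) of the 26 integrin probes detected on at least 1 array, grouped by ligand or partner. Circles are the CTLA-4-Ig array, squares hIgG and triangles vehicle, 1 array each, and the shaded strip marks signals under 0.963, the highest of the 3 detection limits. Itgal, Itgax and Itgb7 have their hIgG square apart on the left, whereas Itgam and Itgb2 have the 3 symbols close together.

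To read single members, each ratio was set beside the 5th and 95th percentile of all probes in its band of mean signal (under 10, 10 to 100, and 100 and over), since dim probes spread more. By construction about 5.01% of all probes lie beyond each limit. For CTLA-4-Ig/hIgG, 3 of 25 integrin probes were above their band and 0 below it, and all 3 were leukocyte integrins.

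Itgb7, the beta7 subunit that pairs with alpha4 or alphaE on lymphocytes, had a normalized signal of 8.10 with CTLA-4-Ig, 4.2 with hIgG and 6.6 with vehicle. The signal was thus lower on the hIgG array than on both others. Its log2 ratio was 0.95 for CTLA-4-Ig/hIgG (1.93-fold, 95th percentile of its band 0.73), 0.30 for CTLA-4-Ig/vehicle, and -0.65 for hIgG/vehicle (5th percentile -0.58). Itgax, the CD11c chain of macrophages and dendritic cells, had signals of 38.2 with CTLA-4-Ig, 22.9 with hIgG and 30.9 with vehicle. The order of the arrays was the same, with log2 ratios of 0.74 for CTLA-4-Ig/hIgG (1.67-fold, 95th percentile 0.40), 0.30 for CTLA-4-Ig/vehicle and -0.43 for hIgG/vehicle (5th percentile -0.29). Itgal, the alpha chain of LFA-1, a receptor for ICAM-1 on T cells and other leukocytes, had 38.7 with CTLA-4-Ig, 26.9 with hIgG and 35.4 with vehicle. Its log2 ratios were 0.52, 0.13 and -0.40 in the same order of comparisons, so that the CTLA-4-Ig and vehicle arrays were close and hIgG was lower than both. All 3 lay outside their band wherever hIgG entered the ratio and inside it for CTLA-4-Ig/vehicle. With 4 other scalings of the arrays the CTLA-4-Ig/hIgG ratio kept its sign for all 3 (0.42 to 0.94). Scaling by the 75th percentile or over jointly detected probes multiplies each array by a constant and moves all ratios alike. It took the median of all probes only from 0.09 to 0.08 and -0.02, so these scalings could not have changed the sign. With normexp on the scanner's background column the CTLA-4-Ig/hIgG ratio was -0.02 for Itgb7, 0.02 for Itgax and 0.01 for Itgal. That column followed the spot signal across probes, with a correlation of log2 values of 0.990 (CTLA-4-Ig), 0.993 (hIgG) and 0.997 (vehicle). Taking it off also takes off signal, so normexp values here and below cannot decide whether a ratio holds.

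The other leukocyte subunits did not share this pattern. Itgam, the CD11b chain of macrophages and neutrophils, had signals of 216 with CTLA-4-Ig, 219 with hIgG and 208 with vehicle, a log2 ratio of -0.02 for CTLA-4-Ig/hIgG. Itgb2, the CD18 chain that pairs with all the alpha chains of the LFA-1 and CD11b group, had 723, 664 and 625.5 on the same arrays. Its log2 ratio was 0.12 for CTLA-4-Ig/hIgG and 0.21 for CTLA-4-Ig/vehicle, both inside the band, and 0.02 for CTLA-4-Ig/hIgG when scaled over jointly detected probes. Itgae, the alphaE chain of lymphocytes in epithelia, had 14.5, 14.9 and 16.2 with one probe and was detected on no array with the other (M200000027). Over the 6 leukocyte probes the log2 ratios had medians of 0.32 (CTLA-4-Ig/hIgG), 0.17 (CTLA-4-Ig/vehicle) and -0.26 (hIgG/vehicle). For the other 19 integrin probes the same medians were 0.08, -0.01 and -0.01.

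The promoters of a leukocyte gene with level signals (Itgam) and of a pair with the low hIgG signal (Itgax and Itgb7) are shown side by side, from 250 bases before to 50 after the RefSeq start (GRCm38.p6). The windows are chr7:128062390-128062689 (plus strand) for Itgam, chr7:128129300-128129599 (plus strand) for Itgax and chr15:102231886-102232185 (minus strand) for Itgb7, each written 5′ to 3′ on the strand of its gene. Capitals mark GAGGAA, the core bound by the myeloid factor PU.1, on either strand, where TTCCTC is its reverse complement.
Itgam: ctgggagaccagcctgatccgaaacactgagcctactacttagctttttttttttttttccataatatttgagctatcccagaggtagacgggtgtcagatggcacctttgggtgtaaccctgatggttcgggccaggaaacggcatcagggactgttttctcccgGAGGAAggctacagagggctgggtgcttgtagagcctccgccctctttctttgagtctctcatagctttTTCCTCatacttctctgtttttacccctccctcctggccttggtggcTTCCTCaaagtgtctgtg
Itgax: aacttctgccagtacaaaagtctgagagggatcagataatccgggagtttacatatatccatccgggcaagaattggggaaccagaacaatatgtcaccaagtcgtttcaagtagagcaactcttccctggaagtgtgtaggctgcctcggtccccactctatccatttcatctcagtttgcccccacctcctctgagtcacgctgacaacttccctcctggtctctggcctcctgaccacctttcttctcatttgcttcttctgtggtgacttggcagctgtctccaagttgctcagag
Itgb7: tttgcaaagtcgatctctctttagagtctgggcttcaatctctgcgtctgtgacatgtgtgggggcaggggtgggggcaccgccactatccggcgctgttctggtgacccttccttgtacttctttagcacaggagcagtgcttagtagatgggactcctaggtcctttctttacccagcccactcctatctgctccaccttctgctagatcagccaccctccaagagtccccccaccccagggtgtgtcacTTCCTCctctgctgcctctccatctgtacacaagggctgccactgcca
Itgam held the motif 3 times and Itgb7 once, and no match was in the Itgax window, so that GAGGAA did not divide the pair from Itgam. TGTGGT, the RUNX core, was found once in Itgax and in neither other window, and GGGCGG, the Sp1 box, once in Itgam, with both strands searched and no matches overlapping. Windows were matched for 30 of the 46 member genes, some with over 1 window. Itgal, which also had the low hIgG signal, and Itgb2 and Itgae had no window, so these motifs could not be read for them. GAGGAA was in 9 of 20 integrin windows and 6 of 14 cadherin windows, against 28.3% of 32851 windows of the same length. TGTGGT was in 3 of 20 and 3 of 14 (16.8% of all windows), and GGGCGG in 9 of 20 and 5 of 14 (35.7%). A match is a run of letters and not a measured site.

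Itgb1, the beta1 subunit shared by the collagen, laminin and fibronectin receptors, had signals of 776 with CTLA-4-Ig, 666 with hIgG and 838 with vehicle. It was again lower on the hIgG array than on the others, and for hIgG/vehicle its log2 ratio was -0.33, below the 5th percentile of -0.25 for bright probes. The log2 ratio was 0.22 for CTLA-4-Ig/hIgG and -0.11 for CTLA-4-Ig/vehicle, both inside the band, and with normexp CTLA-4-Ig/hIgG was -0.08 and hIgG/vehicle -0.04. For hIgG/vehicle 4 of 25 integrin probes were below their band, where 4.97% of all probes were, and these were Itgb1 with the 3 leukocyte chains. None of the 25 was above it.

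The alpha partners of beta1 followed no common order. Itga1, a collagen receptor, was read by 1 probe at 28.0 with CTLA-4-Ig, 28.7 with hIgG and 32.3 with vehicle, and by the other (M400002607) at 4.28, 5.4 and 5.1. Both Itga1 probes were lower with CTLA-4-Ig than with vehicle, at log2 ratios of -0.21 and -0.25, inside their bands. Itga11, a fibroblast collagen receptor, had 43.0, 38.5 and 40.9, and Itga10, a collagen receptor of cartilage, had 43.7, 45.5 and 39.5, with its other probe (M300005937) detected on no array. Itga2, the collagen receptor of platelets and epithelia, was dim at 1.97, 2.6 and 2.0. The collagen-binding probes spanned log2 ratios between -0.40 and 0.16 for CTLA-4-Ig/hIgG, and 1 of 5 was above the median of all probes.

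Of the laminin receptors, Itga6 had signals of 90.3 with CTLA-4-Ig, 101.5 with hIgG and 107.5 with vehicle. Its log2 ratio for CTLA-4-Ig/vehicle, -0.25, lay just below its band (5th percentile -0.24), and it was the only integrin probe outside the band in that comparison, where 0 were above. With normexp the ratio was 0.04. Itga7 was also lower with CTLA-4-Ig, at 52.9 against 60.9 with hIgG and 59.4 with vehicle. Itga3 ran the other way at 7.32, 5.9 and 4.9, with a log2 ratio of 0.58 for CTLA-4-Ig/vehicle, which was inside the wide band of dim probes (95th percentile 0.80). Itgb4, the beta chain that pairs with alpha6 at hemidesmosomes, had 15.4, 13.3 and 13.5. The laminin receptors thus differed among themselves in direction.

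The RGD-binding alpha chains detected on all 3 arrays, with Itgb3, Itgb5 and Itgb8, were inside their bands in all comparisons. Itga5, the fibronectin receptor chain, had 24.5 with CTLA-4-Ig, 25.1 with hIgG and 23.2 with vehicle, and Itga8, which binds nephronectin and other RGD ligands, had 27.7, 25.5 and 25.6. Itgav was read by M300005470 at 126, 115 and 115, and by M400014569 at 432, 409 and 464. The Itgav probes had log2 ratios of 0.14 and 0.08 for CTLA-4-Ig/hIgG, but 0.13 and -0.10 for CTLA-4-Ig/vehicle, so they disagreed in sign there. Itgb5, a partner of alphaV in vitronectin binding, had 1120.4, 905 and 894. It was higher with CTLA-4-Ig than with both controls, at log2 ratios of 0.31 and 0.33, both inside the band (95th percentiles 0.31 and 0.37). With normexp these ratios were 0.21 and 0.59, and hIgG/vehicle was 0.38 in place of 0.02. Itgb3, the beta chain of the osteoclast and platelet receptors, had 46.3, 40.2 and 41.0, and Itgb8, an alphaV partner that binds latent TGF-beta, had 10.1, 11.7 and 10.2.

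Itga4, which binds VCAM-1 and fibronectin, had 4.97 with CTLA-4-Ig, 4.9 with hIgG and 5.2 with vehicle, and Itga9, which binds tenascin-C, had 8.10, 7.0 and 8.7. Both were inside their band in all comparisons. Itga2b, the platelet alpha chain, had 2.0 with CTLA-4-Ig and 1.1 with hIgG and was not detected with vehicle, so that CTLA-4-Ig was at least 2.0-fold higher than vehicle, taking the lowest detected signal of the vehicle array as the floor. Both values of this bound were rounded in the deposited table, and with signals rebuilt from the scanner intensities it was 1.96 over 0.966, or at least 2.03-fold. The floor lay at the detection limit of the vehicle array (0.963, blank SD 0.482), so the bound is not a firm minimum. Itgb6, an epithelial partner of alphaV, was detected on no array. Over all 25 probes, the hIgG array had the lowest of the 3 signals for 12 (48%), whereas this held for 35.0% of all probes. The CTLA-4-Ig array had the highest signal for 11 (44%), against 55.6% of all probes.

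**Figure D2:**
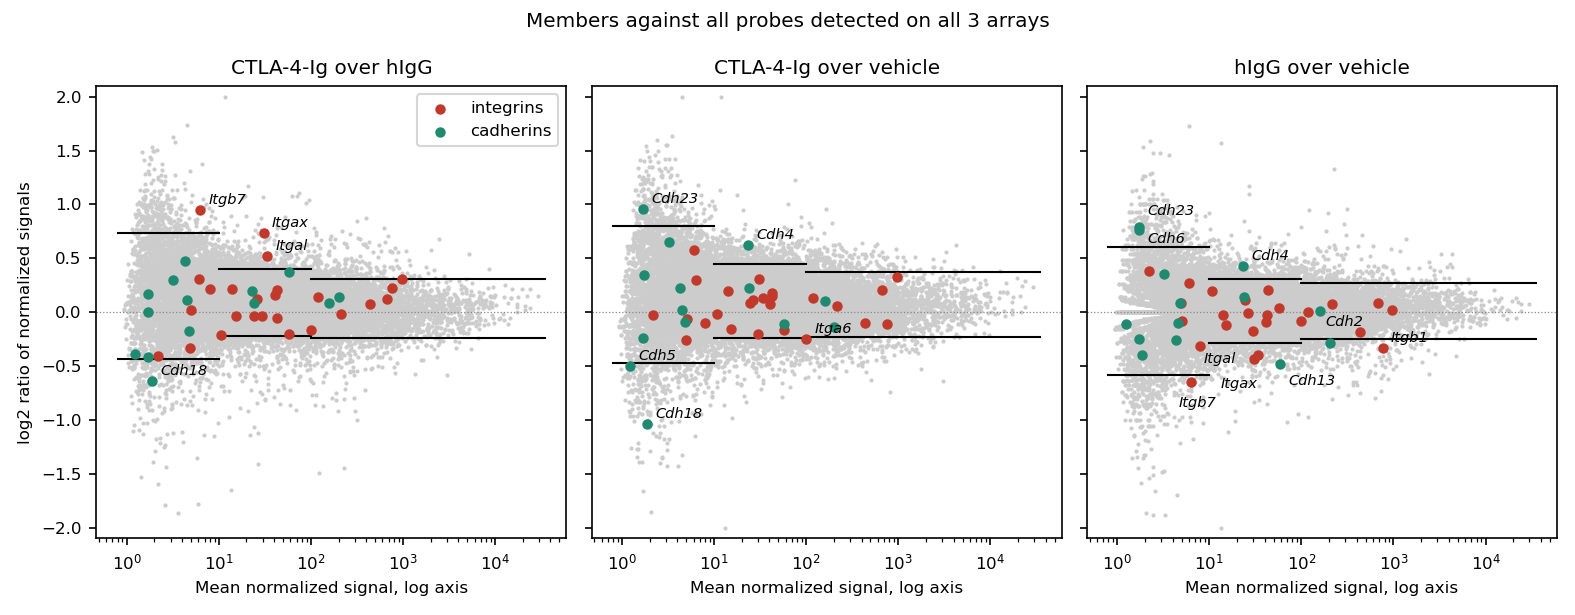
Log2 ratio of normalized signals against mean signal (log axis) for the 25 integrin probes (red), the 14 cadherin probes (green) and all 18664 probes detected on all 3 arrays (grey, with ratios beyond 2 drawn at the edge). Black lines are the 5th and 95th percentile of each band of mean signal, and members outside them are named. Most members lie among the grey points in all 3 comparisons.

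Of the cadherin probes 14 of 22 (63.6%) were detected on all 3 arrays, against 79.5% of all probes. The mean signal reached 10 for 5 of these 14, 25 for 3 and 100 for 2, against 12798, 9675 and 5029 of all 18664 probes so detected. Cdh7, Cdh8, Cdh22, Cdh24 and one Cdh18 probe (M400002362) were detected on no array. These belong to the type II cadherins, most of which are known from the nervous system. For CTLA-4-Ig/hIgG 0 of 14 were 2-fold apart and for hIgG/vehicle 0 of 14, whereas for CTLA-4-Ig/vehicle 1 was 2-fold lower (Cdh18) and 0 were higher. The shares of all probes are those given with the integrins. Their median on the log2 scale was 0.10 (CTLA-4-Ig/hIgG), 0.06 (CTLA-4-Ig/vehicle) and -0.04 (hIgG/vehicle), or 0.01 above, 0.05 below and 0.07 below all probes. The log2 ratios ran between -1.04 and 0.95 for CTLA-4-Ig/vehicle, a wider range than that of the integrins, and dim probes held both ends.

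**Figure D3:**
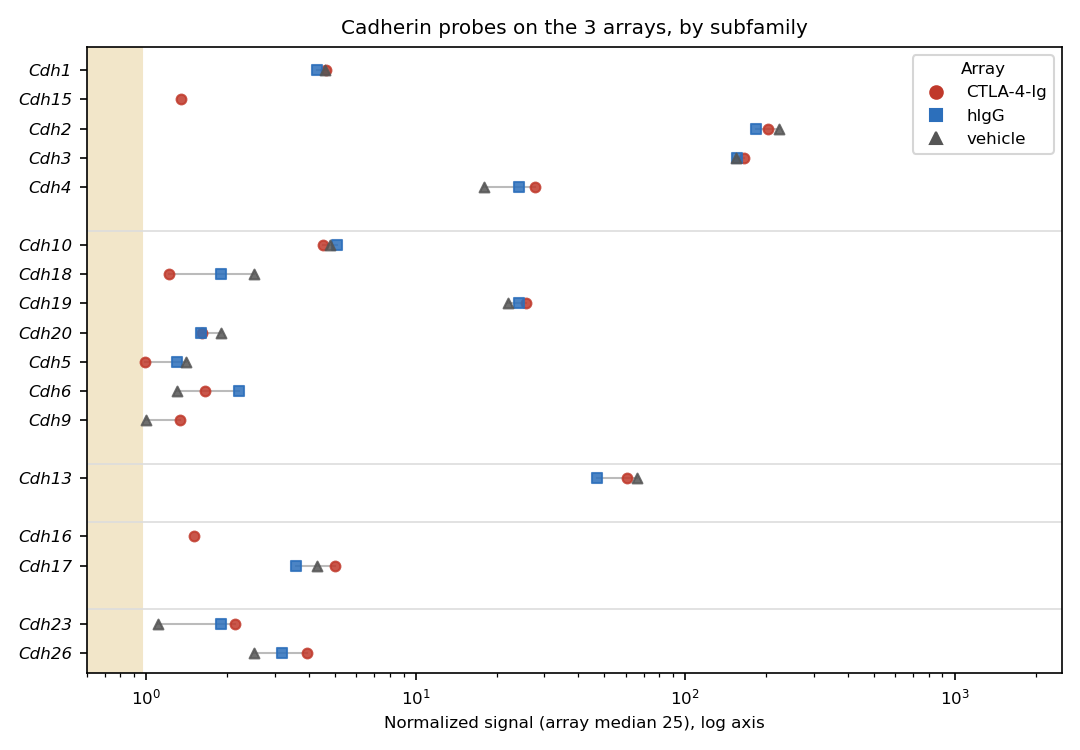
Normalized signals (log axis) of the 17 cadherin probes detected on at least 1 array, grouped by subfamily, with symbols and shaded strip as for the integrins. Cdh2, Cdh3 and Cdh13 are the 3 probes whose mean signal reached 25, and most others lie under a signal of 10.

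Both cadherin probes whose mean signal reached 100 were of classical cadherins. Cdh2 (N-cadherin, which joins mesenchymal and neural cells) had signals of 203 with CTLA-4-Ig, 184 with hIgG and 223 with vehicle. It was thus lower on the hIgG array than on both others, with a log2 ratio of -0.28 for hIgG/vehicle, just below the band (5th percentile -0.25), and 0.14 for CTLA-4-Ig/hIgG. Cdh3 (P-cadherin, of epithelia and placenta) had 166, 156 and 154.5 and was level, at 0.09 for CTLA-4-Ig/hIgG and -0.02 when scaled over jointly detected probes. Cdh4 (R-cadherin) had 27.6 with CTLA-4-Ig, 24.1 with hIgG and 17.9 with vehicle. Both protein-treated arrays were above vehicle, with log2 ratios of 0.62 for CTLA-4-Ig/vehicle (1.54-fold, 95th percentile 0.45) and 0.43 for hIgG/vehicle (95th percentile 0.31). CTLA-4-Ig/hIgG was 0.19 and inside the band. Cdh4 kept its sign in both comparisons with vehicle under the other scalings, though scaling by a constant could not have changed it. With normexp the values were 0.18 and 0.16. Cdh1 (E-cadherin, of epithelia) was dim at 4.65, 4.3 and 4.6.

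Cdh13 (T-cadherin), which is held by a lipid anchor in place of a cytoplasmic tail and binds adiponectin, had signals of 61.0 with CTLA-4-Ig, 47.2 with hIgG and 66.0 with vehicle. Here too hIgG was lower than both other arrays, with log2 ratios of 0.37 for CTLA-4-Ig/hIgG (inside the band) and -0.48 for hIgG/vehicle (5th percentile -0.29), and CTLA-4-Ig/vehicle was -0.11. With normexp the ratio of hIgG/vehicle was -0.07 for Cdh13 and 0.02 for Cdh2. Cdh19, a type II cadherin known from Schwann cell precursors in rodents, had 25.7, 24.2 and 22, and Cdh10, of neurons, had 4.51, 5.1 and 4.8. Both were inside their band throughout.

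Among the dim cadherins the ratios were wide and the differences in signal small. Cdh18 had a signal of 1.22 with CTLA-4-Ig, 1.9 with hIgG and 2.5 with vehicle, a log2 ratio of -1.04 for CTLA-4-Ig/vehicle, and the difference in signal was -2.06 times the combined SD of the blank spots on these arrays. Cdh23, known from the tip links of hair cells, had 2.13, 1.9 and 1.1, with log2 ratios of 0.95 for CTLA-4-Ig/vehicle and 0.79 for hIgG/vehicle, differences of 1.65 and 1.22 blank SDs. Cdh6, of kidney and neural crest, had 1.65, 2.2 and 1.3, and its log2 ratio of 0.76 for hIgG/vehicle was a difference of 1.37 blank SDs. Cdh26 had 3.93, 3.2 and 2.5, a log2 ratio of 0.65 for CTLA-4-Ig/vehicle that was inside the band. Cdh5 (VE-cadherin, which joins endothelial cells) had 0.990, 1.3 and 1.4, close to the detection limits of 0.791, 0.894 and 0.963, and its log2 ratio of -0.50 for CTLA-4-Ig/vehicle was a difference of -0.66 blank SDs. With normexp these dim ratios lay between -0.02 and 0.01. Cdh17, known from liver and intestine in the rat, had 5.01, 3.6 and 4.3, and Cdh20 had 1.61, 1.6 and 1.9.

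Cdh15 (M-cadherin, of muscle) at 1.34 and Cdh16, of kidney, at 1.5 were detected only on the CTLA-4-Ig array. Cdh9 was detected there at 1.34 and with vehicle at 1.0, and not with hIgG. Thus 3 of 22 cadherin probes (13.6%) were detected with CTLA-4-Ig and not with hIgG, and 0 the other way round, where 705 and 174 of all 23473 probes were. The CTLA-4-Ig array also had the lowest detection limit of the 3. The bounds for CTLA-4-Ig/hIgG were at least 1.49-fold for Cdh15, at least 1.66-fold for Cdh16 and at least 1.48-fold for Cdh9. These signals were near the detection limits of 0.791 with CTLA-4-Ig and 0.894 with hIgG (blank SDs 0.396 and 0.447), so the bounds are not firm minimums. In all, 1 of 14 cadherin probes (Cdh18) was below its band for CTLA-4-Ig/hIgG, where 5.01% of all probes were. For CTLA-4-Ig/vehicle 2 were above and 2 below (5.01% each), and for hIgG/vehicle 3 above and 2 below (5.01% and 4.97%).

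The genes that integrins bind were measured with 29 of 32 listed ligands, 27 of them detected on all 3 arrays. Their median on the log2 scale was 0.18 for CTLA-4-Ig/hIgG, with 16 of 27 above the median of all probes, 0.08 for CTLA-4-Ig/vehicle, with 11 above, and -0.08 for hIgG/vehicle, with 6 above. Thbs1, thrombospondin-1, had a signal of 381 with CTLA-4-Ig, 212 with hIgG and 360.5 with vehicle, the highest log2 ratio of the list for CTLA-4-Ig/hIgG (0.85). As with Itgb1, the hIgG array was lower than both others. Vtn, vitronectin, was the 1 ligand 2-fold apart, at 4.27 with CTLA-4-Ig against 2.1 with vehicle (log2 ratio 1.02), with 2.7 on the hIgG array, and it was dim. Vcam1, the ligand of alpha4 on other cells, was lowest for CTLA-4-Ig/hIgG (-0.20), with 513, 588 and 611.5.

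On the inner side, 25 of 26 integrin adaptors and kinases were detected on all 3 arrays. Their medians were 0.08 (CTLA-4-Ig/hIgG), -0.02 (CTLA-4-Ig/vehicle) and -0.03 (hIgG/vehicle) on the log2 scale, and none was 2-fold apart. Parvg, a parvin of blood cells, was highest for CTLA-4-Ig/hIgG at 0.72 (10.1 with CTLA-4-Ig, 6.1 with hIgG and 6.0 with vehicle), and Parvb, another parvin, was lowest at -0.29. Vcl, vinculin, which ties both integrin and cadherin contacts to actin, had 539 with CTLA-4-Ig, 412 with hIgG and 621 with vehicle. Like Itgb1, Cdh2 and Cdh13 it was lower on the hIgG array, with a log2 ratio of -0.59 for hIgG/vehicle. The cadherin partners, 14 of 17 detected on all 3 arrays, had medians of 0.13, 0.11 and -0.11, with 12 of 14 below the median of all probes for hIgG/vehicle and none 2-fold apart. Ctnnb1, beta-catenin, had 1565 with CTLA-4-Ig, 1319 with hIgG and 1336 with vehicle. Ctnnd2, a delta-catenin, was highest for CTLA-4-Ig/hIgG (0.92) at signals of 1.89, 1.0 and 1.2, and Pkp2, a plakophilin of desmosomes, was lowest at -0.10.

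Markers of the cells in the culture also differed between the arrays. Those of pericytes and smooth muscle (10 of 10 detected) had a lower sum on the hIgG array, where Itgb1, Cdh2 and Cdh13 were lower too. The summed signals were 3464 with CTLA-4-Ig, 2194 with hIgG and 3287 with vehicle. Acta2 (2884, 1804 and 2681) and Tagln (473, 302 and 508) made up most of these sums. Cnn1, Cspg4 and Mcam had signals between 12.8 (Cnn1, hIgG) and 40.1 (Mcam, CTLA-4-Ig). Myh11, Rgs5, Des, Notch3 and Abcc9 were dim, between 1.1 (Des, hIgG) and 4.4 (Notch3, vehicle), so the sums do not show that such cells were present. For hIgG/vehicle 7 of 10 were below the median of all probes. Rgs5, Mcam and Myh11 were above it, at log2 ratios of 0.45, 0.34 and 0.06. The 14 macrophage markers ran against Itgax and Itgal, with log2 medians of -0.13 (CTLA-4-Ig/hIgG) and 0.24 (hIgG/vehicle), 13 of 14 of them above the median of all probes for hIgG/vehicle. Their summed signals were 51667 with CTLA-4-Ig, 51049 with hIgG and 45569 with vehicle. Lyz2 alone made up most of each sum, at 32021, 28785 and 27289. Of the T cell markers 6 of 7 had a probe, Cd3e and Cd3g were detected on no array, and the other 4 followed no common order. Cd2 was lowest with hIgG, like Itgal, at 17.5, 10.4 and 15.9, whereas Cd3d was highest there at 7.44, 8.3 and 6.8. Cd247 had 24.5, 22.7 and 19.9, and Cd8a had 7.08, 5.2 and 3.9 with one probe and 5.51, 4.1 and 6.3 with the other. The T cell markers had log2 medians of 0.27, 0.22 and 0.04, with 2 of 4 above the median of all probes for hIgG/vehicle, and summed signals of 62.0, 50.7 and 52.8. Of 6 dendritic cell markers Flt3, Xcr1, Clec9a and Ccr7 were detected on no array, and the summed signals were 71.9, 58.7 and 58.7. Most of this came from 1 Zbtb46 probe at 61.3, 48.7 and 48.4. The other Zbtb46 probe was level at 3.61, 3.6 and 3.7, and Siglech had 7.0, 6.4 and 6.6. The 12 FLS markers summed to 39623, 35702 and 37004, with medians of 0.08, 0.11 and -0.06. The 8 endothelial markers, read beside Cdh5, summed to 79.4, 81.1 and 79.3, and Kdr alone made up most of this at 54.2, 58.1 and 56.2. Of these 8, 6 were detected on all 3 arrays, Cldn5 on none, and Pecam1 only with hIgG at 1.1. The part of these differences in the members' ratios was not tested.

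**Figure D4:**
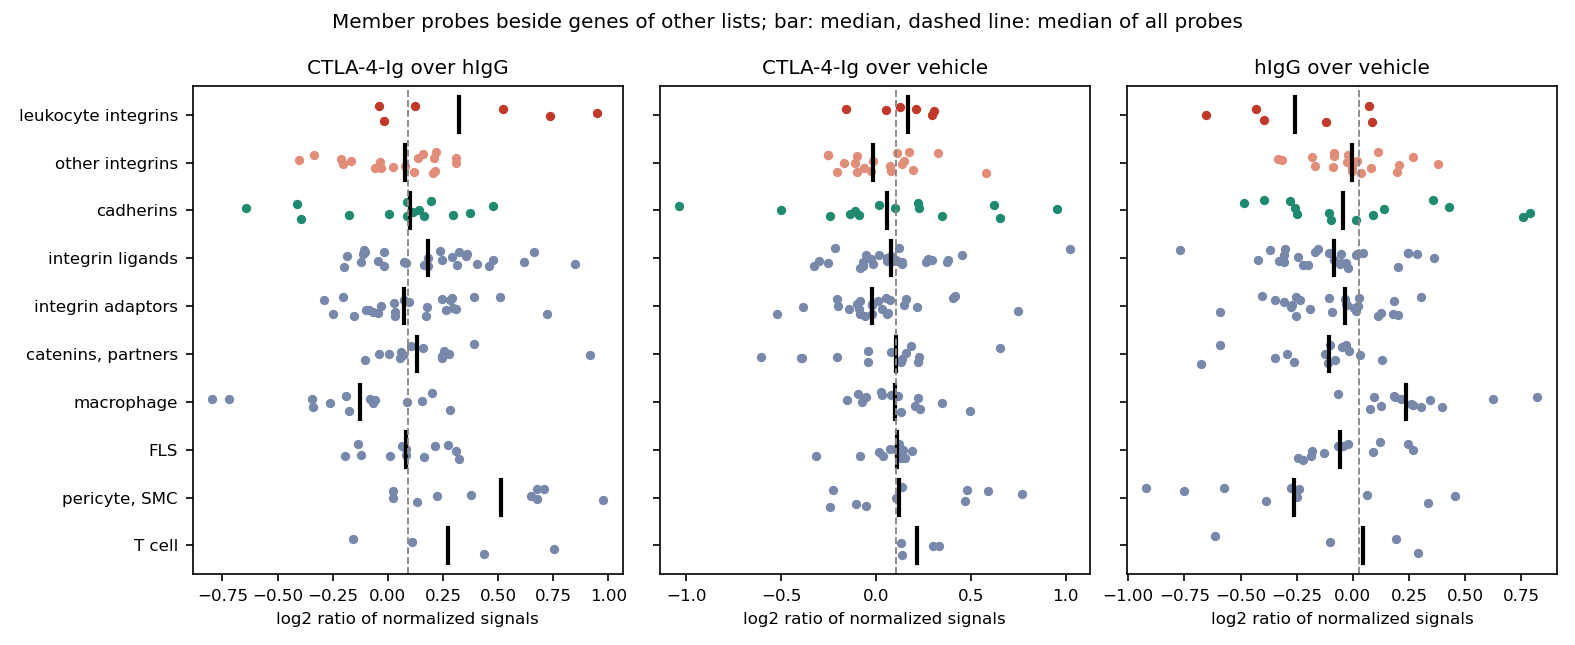
Log2 ratios of member probes (leukocyte integrins, other integrins, cadherins) and of genes of the other lists, for the 3 comparisons, with each point 1 member probe or 1 gene. Vertical bars are medians and the dashed line is the median of all probes, and the leukocyte integrins have medians of 0.32, 0.17 and -0.26, whereas macrophage markers have -0.13, 0.10 and 0.24.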

How the data were processed

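Intensity values came from Cy5-labelled RNA on Toray 3D-Gene mouse oligo chips, 1 array per condition. The authors subtracted the blank spots and scaled the median of the detected signals to 25, and the deposited table of these normalized intensities, on a linear scale, was used here. Its hIgG and vehicle columns have at most 1 decimal, and its CTLA-4-Ig column has more for all but 864 of 19710 values, Itga2b among those 864. The same signals rebuilt from the deposited scanner intensities differed by at most 0.0498 for the members. Samples were grouped by the treatment in their labels, with 0 sample columns unused.

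Log2 ratios, medians, percentiles in bands of mean signal and counts were computed in Python 3.11.15 (pandas 2.3.3, numpy 2.4.6) and drawn in matplotlib 3.10.9. In lists, log2 signals of several probes of a gene were averaged. Counting was tested on simulated data. A probe was named through the platform annotation (20690 probes with 1 symbol, 2783 unnamed), updated to RefSeq, which changed 0 member symbols. No genome build is given for the arrays in the sources used here, so the only coordinates are those of RefSeq promoter windows (GRCm38.p6).

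All members were accounted for. Those 2-fold apart or outside the 5th to 95th percentile of their band were named, and from other lists the genes 2-fold apart or the highest and lowest, with others added after their values were seen (such as Vcl, Ctnnb1 and the T cell markers). The rule for the members used names and no measured value, but it and the lists were chosen with earlier results of these data known. The alternatives were the rebuilt signals, quantile and cyclic loess normalization, scaling by the 75th percentile or over jointly detected probes, limma's normexp (offset 50, limma 3.58.1 in R 4.3.3), mean signals of at least 10 or 25, the brightest probe of each gene, a 1.5-fold threshold, and undetected probes at the lowest detected signal.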

Additional observations from a re-analysis of the deposited data

How the results depend on the processing

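With 1 array per condition no array could be left out. No paired analysis was possible because no group holds over 1 array. Family medians are given here relative to all probes. The integrin median for CTLA-4-Ig/vehicle (-0.03) was 0.0391 at a mean signal of at least 25, and that for hIgG/vehicle (-0.05) was 0.0020 with normexp. The cadherin median for CTLA-4-Ig/hIgG (0.01) was -0.0128 with quantile normalization, -0.0098 with cyclic loess and -0.0060 with normexp, and that for CTLA-4-Ig/vehicle (-0.05) was 0.0120 at a mean signal of at least 10 and 0.12 with undetected probes at the lowest detected signal. At 1.5-fold in place of 2-fold, integrin probes apart numbered 2 for CTLA-4-Ig/hIgG (both higher), 0 for CTLA-4-Ig/vehicle and 1 for hIgG/vehicle (lower), and cadherin probes 1 (lower), 4 (3 higher and 1 lower) and 2 (both higher). Of all probes 3.58% were 1.5-fold higher and 1.13% lower for CTLA-4-Ig/hIgG, 4.62% and 1.16% for CTLA-4-Ig/vehicle, and 2.12% and 1.9% for hIgG/vehicle. The 1 cadherin probe 2-fold apart for CTLA-4-Ig/vehicle became 0 with normexp and at mean signals of at least 10 or 25, and setting undetected probes to the lowest detected signal gave 1 integrin probe there. The other counts were the same and the other medians kept their sign, though some changed in size. At a mean signal of at least 25, with 3 probes left, the cadherin median was 0.08 for CTLA-4-Ig/hIgG, -0.19 for CTLA-4-Ig/vehicle and -0.30 for hIgG/vehicle (-0.07), and the integrin median for CTLA-4-Ig/hIgG (0.03) was 0.06. With normexp the integrin medians were 0.0079 for CTLA-4-Ig/hIgG and -0.00072 for CTLA-4-Ig/vehicle, and the cadherin medians for CTLA-4-Ig/vehicle and hIgG/vehicle -0.0041 and -0.0012. Over 6 alternatives there were 702 member ratios. Of these, 655 shifted by less than the SD of the hIgG/vehicle log2 ratios of all probes in their band of mean signal. This SD was 0.36 for signals under 10, 0.19 for 10 to 100 and 0.16 for 100 and over. The other 47, all with normexp, shifted by more, and 70 normexp ratios shifted by less. The sign changed for 84 of the 702. Of these, 51 were with normexp, 11 with cyclic loess, 10 with quantile normalization and 10 with scaling over jointly detected probes. A ratio near 0 can change sign and still shift by less than the SD. The scanner's background column followed the spot signal (r of log2 values across probes 0.99 on the CTLA-4-Ig array), and normexp drew most ratios of dim probes near 0. Quantile normalization moved the median of all probes for CTLA-4-Ig/hIgG to 0.0034. The cause of these differences was not tested. Ratios of probes with a signal under 10 are limited by blank spots (SD 0.396 to 0.482) and by the 1-decimal columns.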

Other observations

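Other cadherin-like genes outside the rule, chosen after their values were seen, were looked at in the same way. The protocadherins, cell-surface relatives of the cadherins known from neurons, had 41 of 57 probes detected on all 3 arrays, with median log2 ratios of 0.14 for CTLA-4-Ig/hIgG, 0.20 for CTLA-4-Ig/vehicle and 0.00 for hIgG/vehicle. Pcdh7 had signals of 2.86 with CTLA-4-Ig, 1.2 with hIgG and 2.5 with vehicle, which were 2-fold apart for CTLA-4-Ig/hIgG (log2 ratio 1.26) and hIgG/vehicle (-1.06). Pcdhb14 had 5.84, 3.0 and 2.8 and was 2-fold apart for CTLA-4-Ig/vehicle (1.06). All of these signals were under 10. Of the Fat, Dachsous and Celsr probes, giant cadherins of planar polarity and growth control, 8 of 10 were detected on all 3 arrays, with medians of 0.29, 0.01 and -0.17. Fat1 had 197 with CTLA-4-Ig, 161 with hIgG and 282 with vehicle, a log2 ratio of -0.52 for CTLA-4-Ig/vehicle and -0.81 for hIgG/vehicle. Dchs1 had 200.4, 173 and 157, so it was higher with CTLA-4-Ig than with both controls. Of the desmogleins and desmocollins, the cadherins of desmosomes, 4 of 9 probes were detected on all 3 arrays and 4 on none, and Dsc2 had 26.4, 25.3 and 20.0.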
